A study of Schizosaccharomyces pombe with 6 samples.

Results

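The mating-type window of *S. pombe* was taken as the 41 AseI restriction fragments whose midpoints lie in the 50 kb from position 2100000 of chromosome II, out of 9464 nuclear fragments listed in the tables. Its contacts were the non-adjacent pairs of nuclear fragments with at least 1 end in that window, each pair used once, and they were chosen by position without use of any measured value. They numbered 861 pairs with 12564 counts of read pairs in G1, 642 pairs with 12320 counts in G2 and 618 pairs with 12407 counts in M, out of 84482, 71656 and 59578 pairs in all. Over the phases there were 1904 distinct pairs. The window thus held 0.611%, 0.561% and 0.585% of the network's counts. Genome Conformation Capture (GCC) joins DNA ends that were cross-linked near each other in the nucleus by digestion and ligation, and counts the joined fragments by paired-end sequencing. Cultures were grown at 26°C and shifted to 36°C for 4 h, with the temperature-sensitive alleles cdc10-129 (strain MY291) for G1 phase, cdc25-22 (strain MY284) for G2 phase and nuc2-663 (strain MY286) for M phase. All 3 strains were of mating type h- and carried a marker written lue1 in the study's strain list. Each phase had 2 biological replicates, which the tables pool, so no spread between replicates can be given and phase, strain and library cannot be told apart. Intervals cover counting error only, and p-values compare pooled tables.

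The mating-type region decides whether a fission yeast cell is P or M. The active cassette, *mat1*, is expressed, whereas silent cassettes further along the chromosome arm are packed in heterochromatin and serve as donors of sequence when *mat1* switches. In switching strains the silent region holds *mat2-P* and *mat3-M* around a stretch related to the centromeric repeats, named *cenH*, and is bordered by inverted repeats that limit the heterochromatin. In the window used here the annotation placed *mat1-Mi* and *mat1-Mc* in a fragment of 9431 bp (II, 2107846-2117276), called the *mat1* fragment, and *mat3-Mi* and *mat3-Mc* in a fragment of 3038 bp (II, 2130936-2133973), called the *mat3* fragment. *mat1-Mc* and *mat3-Mc* encode an HMG-box regulator of M cells. Neither the deposited nor the reference annotation names *mat2* or *cenH* in the window (0 entries each). Between the cassettes lie housekeeping genes such as *rpt6*, which encodes an ATPase of the proteasome, and to the right lie *rrb1*, a gene for a WD repeat protein of ribosome biogenesis, and *aha1*, whose product activates Hsp90.

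The sequence of the window holds 3 exact repeats between fragments, and most counts were of fragments that hold them. The cassettes of *mat1* and *mat3* have 1323 bp in common in the same orientation (II, 2114100-2115422 and 2132467-2133789). The region that the annotation in the tables calls duplicated around *mat3* holds an exact inverted repeat of 2067 bp (II, 2129237-2131303 and 2135026-2137092) with 3722 bp between the copies. A direct tandem repeat of 569 bp (II, 2147727-2148295 and 2148315-2148883) lies between *rrb1* and *aha1*, its copies 588 bp apart from start to start. AseI cuts the inverted repeat into a left and a right outer fragment, a left and a right repeat fragment of 1620 bp each, and an inner part that on the left is in the *mat3* fragment and on the right in a fragment of 894 bp, the right inner fragment. In all, 13 of the 41 fragments hold a stretch of 50 bp, the length of a read, that occurs more than once in the nuclear genome, and 12 of them have it in common with another fragment of the window. In the remaining fragment, with *srp40* and *mtd1* (II, 2140001-2142592), 359 of the 2543 stretches of 50 bp were repeated and none was in common with another fragment. The other 28 fragments are repeat-free. No fragment shared a 50 bp stretch with a fragment outside the window (0 of 41), and none shared even 25 bp with a centromere (0 of 41).

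The sequences below show how the copies end, since a read that lies within the capitals cannot be given to 1 copy. They come from the RefSeq reference sequence of chromosome II, in which all 41 fragments end at the same AseI sites as in the tables. The borders of the cassettes (chrII:2114070-2114149, chrII:2132437-2132516, chrII:2115373-2115452 and chrII:2133740-2133819, plus strand) show the common 1323 bp in capitals. The tandem fragment (chrII:2148012-2148206, plus strand) is identical over all its 195 bases in the second copy (chrII:2148600-2148794).
mat1 left border: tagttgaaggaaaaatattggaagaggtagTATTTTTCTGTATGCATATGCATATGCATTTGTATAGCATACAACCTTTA
mat3 left border: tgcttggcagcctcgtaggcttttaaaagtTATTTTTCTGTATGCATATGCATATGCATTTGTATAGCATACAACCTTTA
mat1 right border: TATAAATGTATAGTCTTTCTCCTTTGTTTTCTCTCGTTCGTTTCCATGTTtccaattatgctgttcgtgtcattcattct
mat3 right border: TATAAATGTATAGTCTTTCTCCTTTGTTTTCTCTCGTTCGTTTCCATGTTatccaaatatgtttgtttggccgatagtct
first tandem fragment: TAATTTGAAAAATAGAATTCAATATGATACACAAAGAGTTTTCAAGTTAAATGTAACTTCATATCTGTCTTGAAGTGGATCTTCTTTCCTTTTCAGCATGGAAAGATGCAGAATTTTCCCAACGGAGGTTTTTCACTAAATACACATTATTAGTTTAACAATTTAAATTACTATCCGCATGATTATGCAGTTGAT

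Pairs of fragments that hold copies of these repeats, or lie next to one, had most of the window's counts in each phase. How read ends on exact repeats were placed is not given in the sources used here, so contacts between copies and reads of 1 copy given to both cannot be told apart in these counts. A pair was said to share repeated sequence when its fragments, or a fragment next to either, had a 50 bp stretch in common. Such pairs numbered 13 with 11520 counts in G1, 14 with 11559 counts in G2 and 17 with 11718 counts in M. This was 91.7% (95% Wilson interval 91.2 to 92.2), 93.8% (93.4 to 94.2) and 94.4% (94.0 to 94.8) of the counts. All of these pairs lay within the window. In 7 of them the fragments themselves held the common stretch, with 11254, 11099 and 11533 counts, and the other 10 were reached through a neighbour. The study called a pair significant at 3 counts or more. Unless it stated otherwise it analysed only uniquely positioned pairs, whereas the cut-off is set here on counts that include repeated sequence. Of the window's pairs 53 in G1 (6.16%), 41 in G2 (6.39%) and 24 in M (3.88%) reached 3 counts, 13 of them within the window in each phase. These 13 all share repeated sequence. Over all non-adjacent nuclear pairs the shares were 17.9%, 19.3% and 16.2%, so the window stood below the background.

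**Figure D1:**
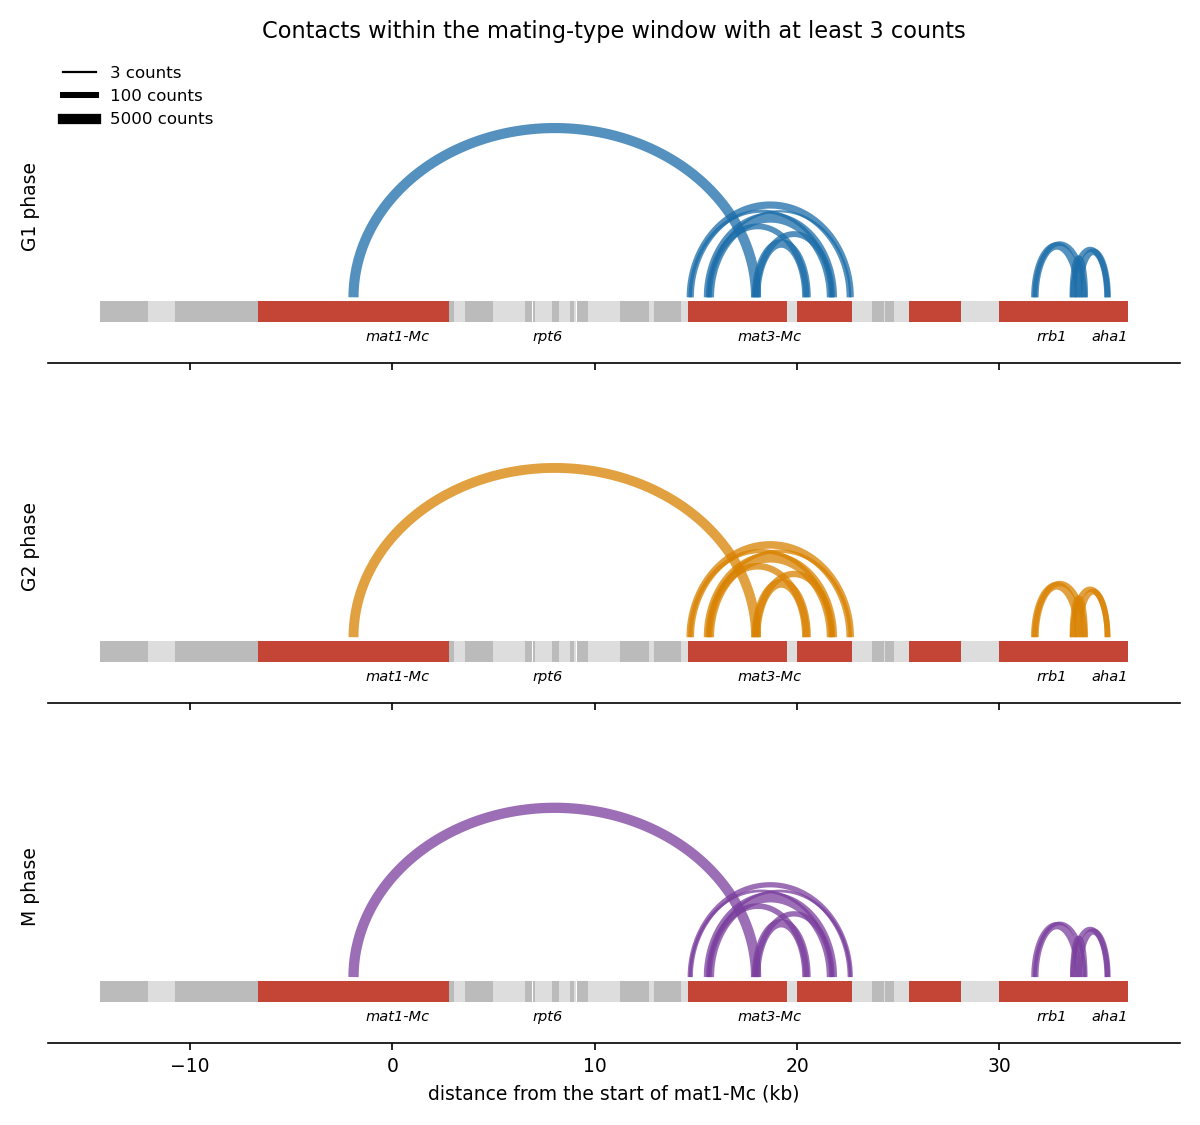
Map of the mating-type window in G1, G2 and M, with position as distance from the start of mat1-Mc in kb. Boxes are the 41 AseI fragments (red, holding a repeated 50 bp stretch; grey, repeat-free) and each arc is a pair within the window with at least 3 counts, its line width rising with the logarithm of the counts. All arcs, 13 in each phase, join fragments around the 3 repeats.

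The left and right repeat fragments made the pair with the most counts, 4708 in G1, 5185 in G2 and 5020 in M. In counts per 1000000 network counts these were 2289, 2360 and 2368, so the pair hardly moved between phases on this total. The ratio was 1.03 (95% exact interval 0.991 to 1.07) for G2 over G1 phase and 1.03 (0.994 to 1.08) for M over G1 phase. Among the 112 other pairs of copies in the network whose shorter fragment was 1000 to 2000 bp long and that had at least 1000 counts in G1, the median ratios were 1.04 and 1.04.

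The *mat1* and *mat3* fragments made the second pair, with 4412 counts in G1, 3451 in G2 and 5011 in M. This pair was lowest in G2. It stood at 2145, 1571 and 2364 counts per 1000000 network counts, a ratio of 0.732 (0.700 to 0.766) for G2 over G1 phase and of 1.50 (1.44 to 1.57) for M over G2 phase. Pairs of copies elsewhere with a shorter fragment of at least 2000 bp and at least 1000 counts in G1 numbered 134. Their ratio of G2 over G1 phase had a median of 1.07 (quartiles 1.01 and 1.26), and 10 of them (7.46%) were lower than the pair of cassettes. For M over G1 phase the pair of cassettes, at 1.10, lay near the median of those pairs, 1.09. With the network's counts that share no repeated sequence as the total, M over G1 phase was 1.77 for the cassettes and 1.66 for the repeat fragments. On that total the pair of cassettes had 0.876 for G2 over G1 phase and 2.02 for M over G2 phase.

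Pairs between shorter copies were lower in M than in G1 per network count, although the ratio turned above 1 for 3 of them (to 1.34, 1.24 and 1.05) with the network's counts that share no repeated sequence as the total, and stayed below 1 for the outer fragments (0.262) and the tandem fragments (0.628). The *mat3* fragment and the right inner fragment, which have 366 bp of the inverted repeat in common, had 1096, 1337 and 946 counts in G1, G2 and M. The left and right outer fragments, of 225 and 191 bp, had 291, 416 and 49 counts. In counts per 1000000 network counts the outer pair fell from 141 in G1 and 189 in G2 to 23.1 in M, a ratio of 0.163 (0.118 to 0.222) for M over G1 phase and of 0.122 (0.0889 to 0.164) for M over G2 phase. It was the largest change of any of the 7 pairs. Both tandem fragments of 195 bp gave 171, 147 and 69 counts, a ratio of 0.392 (0.292 to 0.521) for M over G1 phase.

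The length of the fragments moved with the ratio of M over G1 phase in the rest of the network too. Over pairs of copies outside the window, grouped by the shorter fragment, that ratio was 0.563 below 250 bp (122 pairs), 0.739 from 250 to 500 bp, 0.863 from 500 to 1000 bp, 1.05 from 1000 to 2000 bp and 1.07 at 2000 bp and above. The window's pairs gave 0.248, 0.738, 0.838, 1.03 and 1.10 in the same groups. The window thus stood near the rest in each group except the shortest. There, 7 other pairs had at least 100 counts in G1, with ratios from 0.346 to 0.657, and the outer pair of the inverted repeat was below all of them. The part of fragment length in the ratios was not tested.

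**Figure D2:**
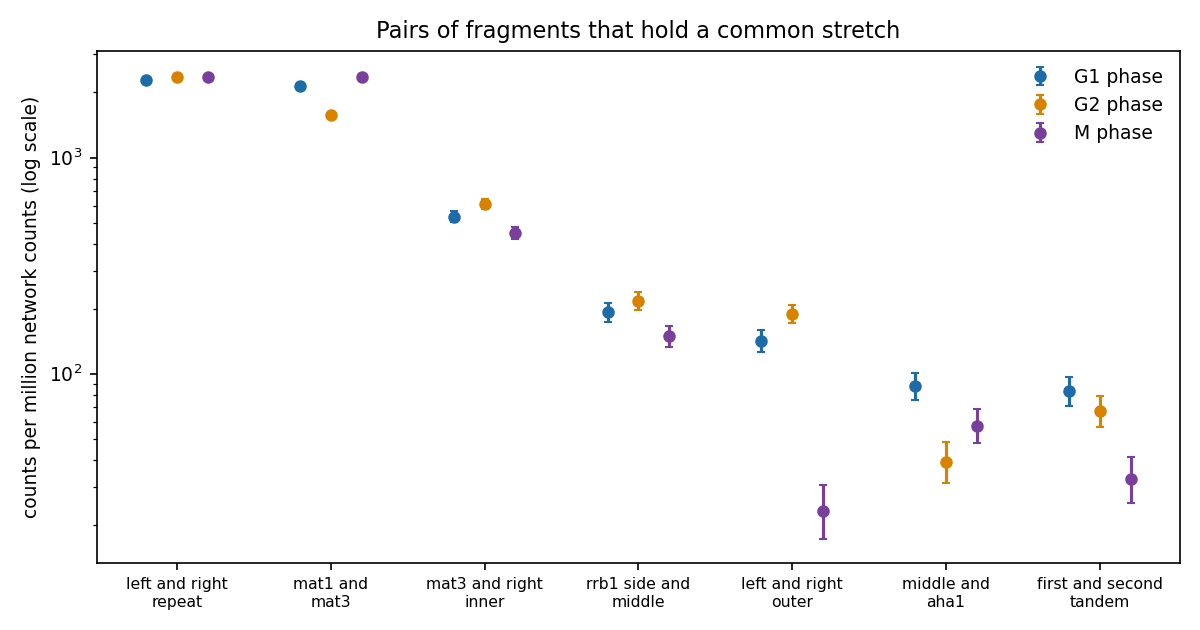
Counts per 1000000 network counts, on a log scale, of the 7 pairs of window fragments that hold a common stretch, in G1, G2 and M, with exact Poisson intervals (95%). The pair of cassettes was lowest in G2, at 1571, and the pair of outer fragments was lowest in M, at 23.1.

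The tandem repeat between *rrb1* and *aha1* gave pairs on both sides of the short fragments. The *rrb1* side fragment (II, 2144457-2148011) and the middle fragment between the tandem fragments (II, 2148207-2148599) had 396, 477 and 316 counts in G1, G2 and M. The middle fragment and the *aha1* fragment (II, 2148795-2150851) had 180, 86 and 122 counts, so this pair was lowest in G2, like the pair of cassettes. Its ratio of G2 over G1 phase was 0.447 (0.342 to 0.582), and M over G1 phase 0.658 (0.518 to 0.832). With the network's counts that share no repeated sequence as the total, G2 over G1 phase was 0.535.

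Fragments at a cut site of a repeat had counts with their neighbour and with the other copy of that neighbour. At the inner cut sites of the inverted repeat, neighbours (left repeat with *mat3* fragment, right inner with right repeat fragment) had 63 to 79 counts in G1, 127 to 148 in G2 and 63 to 64 in M. The corresponding crossed pairs, which are not adjacent and so belong to the contacts, had 81 to 91, 143 to 168 and 55 to 69 counts. At the outer cut sites neighbours had 4 to 5, 8 to 13 and 6 to 10 counts, and crossed pairs 3 to 8, 9 to 17 and 5 to 5. At the tandem repeat neighbours averaged 40.5, 92.2 and 26.2 counts and crossed pairs 41.5, 61.0 and 23.0. Over the other 32 neighbouring pairs of the window, 30, 25 and 31 had no count, and their counts summed to 2, 12 and 1. Whether a read from such a pair arose from neighbours or from distant copies cannot be told apart in these counts.

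Few contacts were counted within the window between fragments that share no repeated sequence as defined above, and most of them were in M. Pairs within the window that shared no repeated sequence numbered 2 in G1 with 2 counts, 2 in G2 with 2 counts and 12 in M with 15 counts. Those with the most counts joined the left outer and right inner fragments, the left repeat fragment and the fragment of 524 bp next to *mat3* (II, 2133974-2134497), and that fragment and the right repeat fragment, each with 0, 0 and 2 counts in G1, G2 and M. Each of these pairs still has an end in the inverted repeat. The last 2 join the fragment of 524 bp to copies with 1618 bp in common, so they are not read as separate contacts. Among 236 windows of 50 kb on the chromosome arms, the mating-type window ranked first in counts within the window in every phase, with 11522, 11561 and 11733. Without pairs that share repeated sequence it ranked 20th, 41st and 5th, against medians of 0, 1 and 0 counts. The rank in M rests in part on the pairs with an end in the inverted repeat.

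Fragments with the repeats held most of the counts. The *mat3* fragment took part in 45.7%, 41.0% and 49.4% of the window's counts in G1, G2 and M, the left repeat fragment in 39.3%, 44.2% and 41.8%, the right repeat fragment in 39.1%, 44.0% and 41.7%, the *mat1* fragment in 36.4%, 28.9% and 41.6%, and the right inner fragment in 9.72%, 12.4% and 8.40% (a count within the window is given to both its fragments). No other fragment reached 5%. Without pairs that share repeated sequence, the 28 repeat-free fragments had between 0 and 43 counts in G1 (median 7), 0 and 23 in G2 (median 8) and 0 and 12 in M (median 4.5). The 13 fragments with repeated sequence had 3 to 158, 6 to 121 and 4 to 145. Per kb the latter had 28.7, 20.6 and 21.3 counts and the repeat-free fragments 12.0, 9.14 and 6.04. This contrast is not read as a trait of the fragments, since pairs of repeat-free fragments were scarce (16, 28 and 16 pairs). With repeated partners alone, the repeat-free fragments had 279, 175 and 126 counts and those with repeated sequence 265, 182 and 170.

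**Figure D3:**
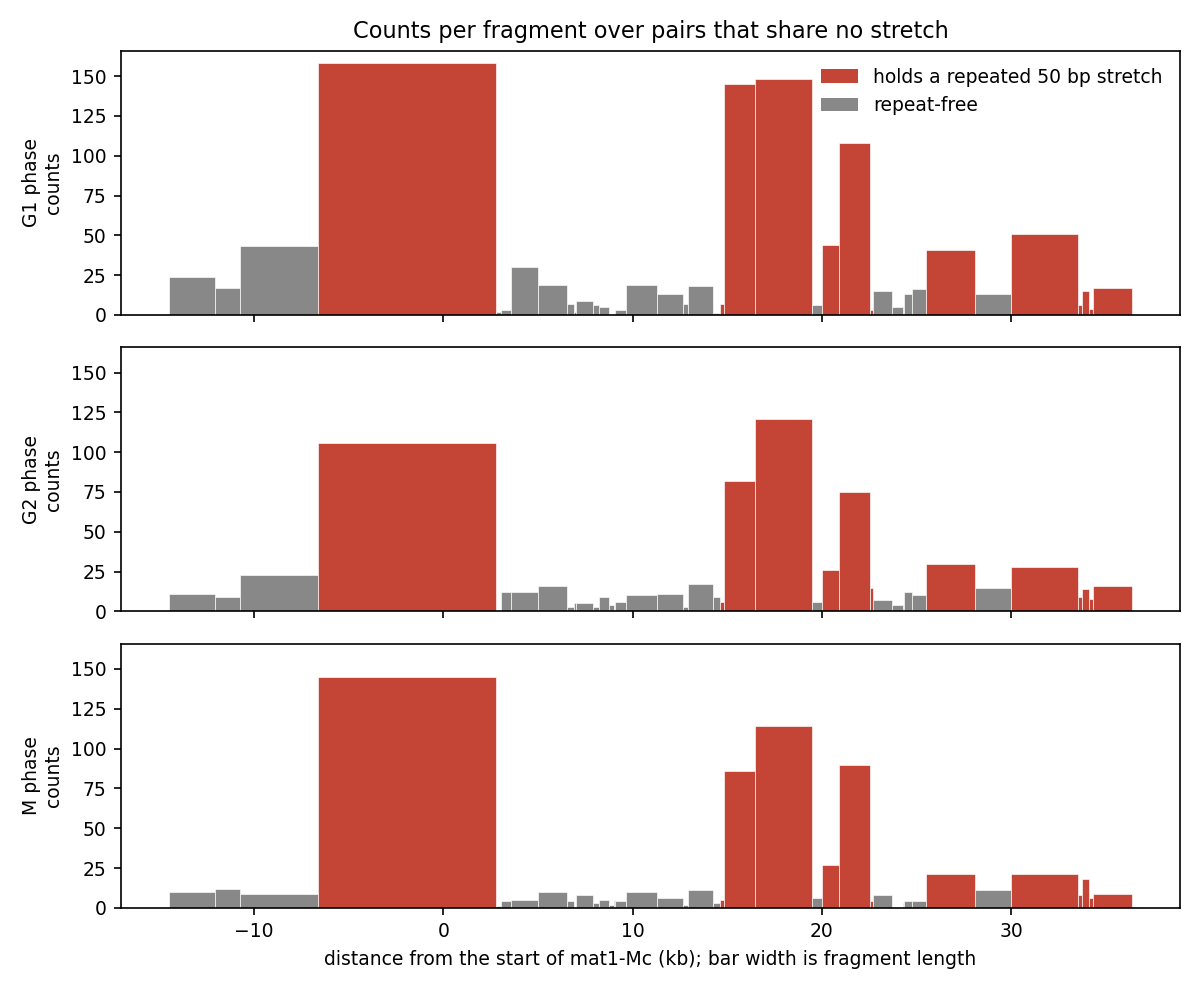
Counts of each of the 41 fragments over pairs that share no repeated sequence, in G1, G2 and M, against distance from the start of mat1-Mc in kb, with bar width as fragment length. Fragments that hold a repeated stretch (red) reach 158, 121 and 145 counts and repeat-free fragments (grey) at most 43, 23 and 12. Pairs of repeat-free fragments were scarce, so the difference is not read as a trait of the fragments.

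The left and right repeat fragments had 135 and 104 partners in G1 that share no repeated sequence with them, of which 10 were common to both (7.41% and 9.62%). In G2 phase 4 of 79 and 74 were common, and in M 3 of 85 and 89. The *mat1* and *mat3* fragments had 11 partners in common of 107 and 139, 10 of 86 and 104, and 5 of 97 and 104. The 4 pairs that set a cassette fragment against a repeat fragment had 5 to 13 partners in common in G1, 3 to 9 in G2 and 1 to 2 in M. Most of the window's pairs that share no repeated sequence rested on 1 count, namely 769 of 848, 552 of 628 and 563 of 601.

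Contacts that share no repeated sequence were joined almost always to repeated sequence at 1 end. Of the pairs that leave the window, 98.1%, 95.7% and 97.3% had a fragment with repeated sequence at 1 or both ends. Pairs of 2 repeat-free fragments numbered 16, 28 and 16 with 18, 51 and 19 counts. The tables thus say little of contacts between unique parts of this window and unique parts of the genome. Of the 9464 fragments 8741 are repeat-free, so the scarcity of such pairs is not read as a trait of the window. The contacts that share no repeated sequence stood at 508 (95% exact Poisson interval 477 to 539), 346 (322 to 372) and 325 (301 to 350) counts per 1000000 network counts in G1, G2 and M, but, with the network's counts of such pairs as the total, at 7802 (7336 to 8290), 6371 (5927 to 6841) and 8012 (7424 to 8633) counts per 1000000 of that total. The order of M phase against the other phases thus turned with the total used.

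Chromosome ends were the class with most pairs above the cut-off outside the window. Within 50 kb of the ends the window had 232 pairs with 416 counts in G1, 160 pairs with 258 counts in G2 and 125 pairs with 199 counts in M. Most were with the ends of chromosome III, which carry the ribosomal DNA, at 369, 228 and 163 counts, and of these 228, 167 and 117 fell on 3 fragments of about 8.4 kb annotated with rRNA genes (III, 1640-10025, 12510-20895 and 2443227-2451634). Contacts with the ends of chromosomes I and II were 47, 30 and 36. The 3 pairs with the most counts all joined the *mat1* fragment to those rRNA fragments, with 18, 10 and 18 counts, 16, 4 and 15 counts, and 11, 6 and 12 counts. All 3 rRNA fragments hold repeated sequence, and how reads on it were placed is not given. These pairs are therefore not read as 3 separate contacts.

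The *mat1* fragment had nearly as many counts with the ends of chromosome III in M as in G1, whereas the repeat-free fragments of the window had fewer. The *mat1* fragment had 64, 29 and 57 counts with them, a ratio of 0.891 for M over G1 phase. The neighbouring fragment to the left, repeat-free and holding *sui1*, a gene of translation initiation (II, 2103724-2107845), had 33, 17 and 3. The *mat3* fragment had 14, 18 and 10, a ratio of 0.714. The left repeat fragment had 18, 7 and 1 and the right repeat fragment 12, 8 and 2. Over the 28 repeat-free fragments of the window there were 194, 122 and 72 counts, a ratio of 0.371.

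Most other arm fragments had lower ratios than the *mat1* fragment. The 188 arm fragments outside the window with repeated sequence and at least 2 kb long had 5.94, 4.56 and 2.70 counts per kb with the ends of chromosome III, and the *mat1* fragment 6.79, 3.07 and 6.04. Of the 179 with at least 10 counts in G1, 3 had a ratio of M over G1 phase as high as the *mat1* fragment, and the median was 0.432 (quartiles 0.319 and 0.565). Of 1681 repeat-free arm fragments chosen the same way, 70 did, with a median of 0.455. The *mat1* fragment was set beside these after its values were seen, so this is a description without a test.

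Beside the other 50 kb windows, the repeat-free fragments of the mating-type window had the highest level of contacts with chromosome ends in G1. With the ends of chromosome III they had 7.81 counts per kb in G1, rank 1 of 236 with a median of 6.12, then 4.91 in G2 and 2.90 in M, both rank 60. With the ends of chromosomes I and II they had 1.17 per kb in G1, again rank 1 with a median of 0.698, and 0.403 in G2 and in M, ranks 207 and 188. The window held 29 of the pairs of all arm windows with the ends of I and II in G1 (0.392%), 10 in G2 (0.179%) and 10 in M (0.181%). This difference did not pass after adjustment over 9 comparisons (two-sided Fisher's exact test, adjusted p = 0.155 for G1 against G2 phase and 0.155 for G1 against M phase). For the ends of chromosome III the same 2 comparisons did not pass either (Fisher's exact test, adjusted p = 0.378 and 0.599). These rates rest on 24.8 kb of repeat-free sequence in the window.

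Contacts with centromeres were few in every phase, but a larger share of pairs than of fragments. Centromeres hold 1.80% of fragments, and 117 of their 170 fragments hold repeated sequence. In G1, G2 and M they had 5.69%, 7.94% and 7.77% of the window's pairs. There were 49 pairs with 49 counts in G1, 51 pairs with 53 counts in G2 and 48 pairs with 51 counts in M, and no pair reached 3 counts in a phase. By centromere they were 18, 15 and 16 counts for I, II and III in G1, 9, 15 and 29 in G2 and 7, 20 and 24 in M. The *mat1* fragment had 4, 15 and 12 of these counts and the *mat3* fragment 4, 7 and 4. Of 140 distinct pairs, 132 were seen in 1 phase, 8 in 2 phases and 0 in all 3. Seen in 1 phase were thus 94.3%, where it was 91.4% of the window's 1904 distinct pairs (1741) and 77% of those of the whole network (80.5% of its pairs that share no repeated sequence), so nothing particular to centromeres is read from it.

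The centromere pair with the most counts joined the *mat1* fragment to a fragment of centromere II (II, 1635172-1637608), with 0, 1 and 2 counts. The next, each with 1, 1 and 0 counts, joined it to fragments of centromere I with the outer repeats dg and dh, the seats of pericentromeric heterochromatin (I, 3752494-3754308 and 3756526-3762363), and other pairs had the same total of 2. Per kb of repeat-free sequence the window had 1.13, 0.886 and 0.805 counts with centromeres, ranks 21, 106 and 41 of 236 windows, whose medians were 0.934, 0.867 and 0.659. The share of such pairs of all arm windows that the mating-type window held was 0.285%, 0.243% and 0.265%, and no comparison between phases passed (adjusted p = 0.993 for each, Fisher's exact test).

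By number of pairs the chromosome arms were the leading class in each phase, although by counts it was the window itself. Their shares of pairs were below their shares of fragments. The arms of II hold 35.0% of fragments and had 21.8%, 23.5% and 28.5% of the window's pairs in G1, G2 and M. The arms of I and III hold 60.4% and had 43.8%, 41.1% and 38.8%. The arms of chromosome II had 188 pairs with 190 counts in G1, 151 with 161 in G2 and 176 with 178 in M, and the arms of I and III together 377 with 387, 264 with 287 and 240 with 246. Pairs with at least 3 counts numbered 3, 4 and 2 among these. The pair with the most counts joined the fragment right of the inverted repeat (II, 2137203-2138207) to a fragment with *plg7* and *tho4*, the latter annotated as an RNA-binding protein (II, 400915-401704), with 1, 7 and 2 counts. A fragment of 345 bp left of the outer fragment (II, 2128746-2129090) met one annotated with threonyl-tRNA aminoacylation (I, 3063489-3065317) with 1, 6 and 0 counts.

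These pairs stood highest in G2, and the remaining named pairs were smaller. The *mat3* fragment and a fragment between genes (I, 2829631-2830852) had 2, 4 and 0 counts, and a fragment with *emc3* and *mtd1* of 745 bp met a fragment of 174 bp (I, 2748095-2748268) with 3, 2 and 0. A fragment within *rpt6* (II, 2122385-2122707) and the fragment of *tif213*, which encodes a subunit of a translation initiation factor (II, 2186494-2189276), had 1 count in each phase. The *mat3* fragment and a fragment with *mti2* (II, 334124-336820) had 1, 1 and 0.

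The repeat-free partners of the window's repeated fragments were drawn from all 3 chromosomes nearly in proportion to their fragments in G1 and G2 phase, and more from chromosome II in M. They made 474, 344 and 368 pairs, of which 35.2% (31.1 to 39.6), 37.8% (32.8 to 43.0) and 44.6% (39.6 to 49.7) were with chromosome II, which holds 37.3% of repeat-free fragments. Within 100 kb on chromosome II there were 7 pairs in G1 (1.48%), 7 in G2 (2.03%) and 26 in M (7.07%), where the fragments at that distance would give 1.54%, 1.55% and 1.55%. M phase differed from G1 phase (two-sided Fisher's exact test, adjusted over 3 comparisons, p = 0.000129) and from G2 phase (p = 0.00295), and the difference between G1 and G2 phase did not pass (p = 0.592). These contacts were chosen after values were seen, and pairs of 1 fragment are not separate observations. The p-values are thus a description only.

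The left repeat fragment gave 14 of the 26 pairs within 100 kb in M. They were 18.2% of its 77 pairs with repeat-free partners, against 3 of 74 for the right repeat fragment, which has 1618 of its 1620 bp in common with it, 1 of 87 for the *mat3* fragment, 1 of 18 for the right inner fragment and 0 of 60 for the *mat1* fragment. In G1 phase it had 0 of 113 and in G2 3 of 70. Shorter repeated fragments with few pairs had such contacts too, with 2 of 4 for the right outer, 2 of 8 for the first tandem, 2 of 13 for the middle and 1 of 6 for the second tandem fragment in M. Together these 4 had 7 of 31 (22.6%) in M, 0 of 24 in G1 and 1 of 33 in G2. Without the left repeat fragment, the window gave 1.94%, 1.46% and 4.12% in G1, G2 and M. The differences of M phase from G1 and G2 phase then did not pass (2.18 and 2.66 points, Fisher's exact test, adjusted p = 0.161 for both). A read within the 1618 bp common to the left and right repeat fragments cannot be given to 1 of them. The contrast between these fragments is therefore not read as a trait of either, and leaving out the left one sets aside only 1 copy.

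**Figure D4:**
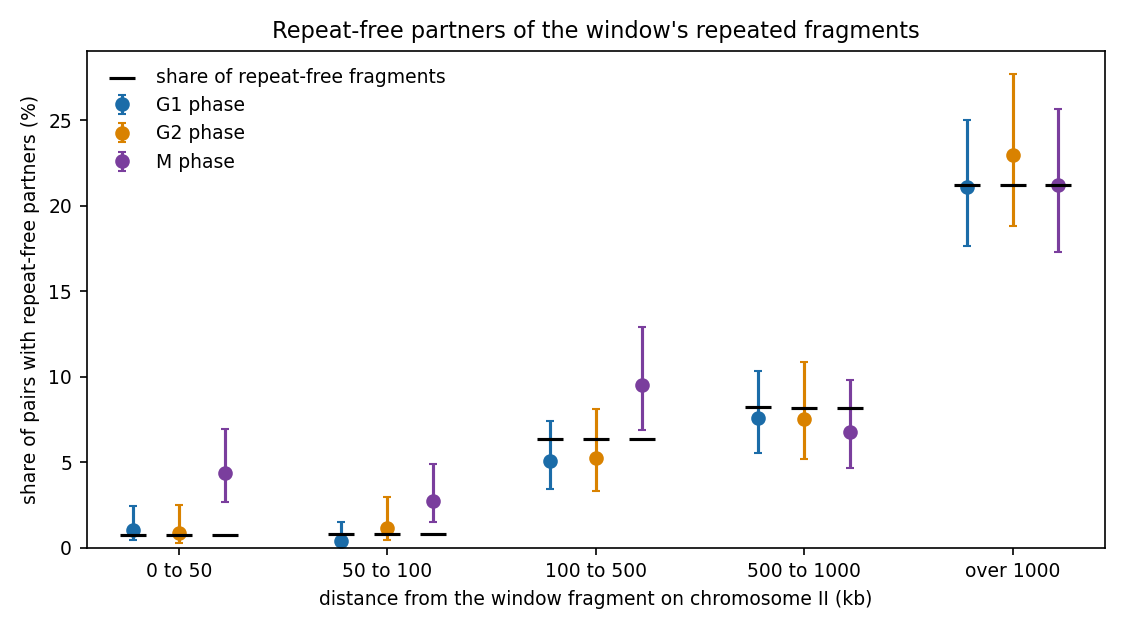
Share of the pairs between the window's repeated fragments and repeat-free partners that fall in each range of distance on chromosome II (kb), by phase, with Wilson intervals (95%). Black dashes show the share of repeat-free fragments in that range. M phase lies above the dash at 0 to 50 kb (4.35%), 50 to 100 kb (2.72%) and 100 to 500 kb (9.51%).

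The same shift was seen at other arm fragments with repeated sequence. Over 457 such fragments the share of repeat-free partners within 100 kb on the same chromosome was 1.75% in G1, 1.81% in G2 and 5.01% in M. The difference of the window from them did not pass in G1 (-0.271 percentage points, adjusted p = 0.857), in G2 (0.228 points, adjusted p = 0.857) or in M (2.06 points, adjusted p = 0.266; Fisher's exact test over 3 comparisons).

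Between G1 and M phase the mix of partner classes shifted from chromosome ends to chromosome II. Pairs within the window rose from 1.74% to 4.69% of pairs, pairs with the arms of chromosome II rose from 21.8% to 28.5%, and pairs with chromosome ends fell from 26.9% to 20.2%, each with an adjusted p of 0.0200 (two-sided Fisher's exact test, Benjamini-Hochberg over 15 class and phase comparisons). The remaining 12 comparisons did not pass. Among them, arms of chromosomes I and III stood at 43.8% and 38.8% (Fisher's exact test, adjusted p = 0.131) and centromeres at 5.69% and 7.77% (adjusted p = 0.226). G2 phase lay between the others in 4 of the 5 classes and none of its comparisons passed (the lowest adjusted p was 0.127). None of the 3 calls held with the window narrowed by 10 kb on each side (Fisher's exact test, adjusted p = 0.0729 for each). With the window widened by 10 kb on each side, pairs with chromosome ends (Fisher's exact test, adjusted p = 0.0512) and with the arms of chromosome II (adjusted p = 0.222) did not pass. Counted by reads, the arms of chromosome II turned to -0.0776 percentage points from G1 to M. Most reads were of pairs that share repeated sequence. Without those pairs the arms of chromosome II had 18.2% of counts in G1 and 25.8% in M.

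**Figure D5:**
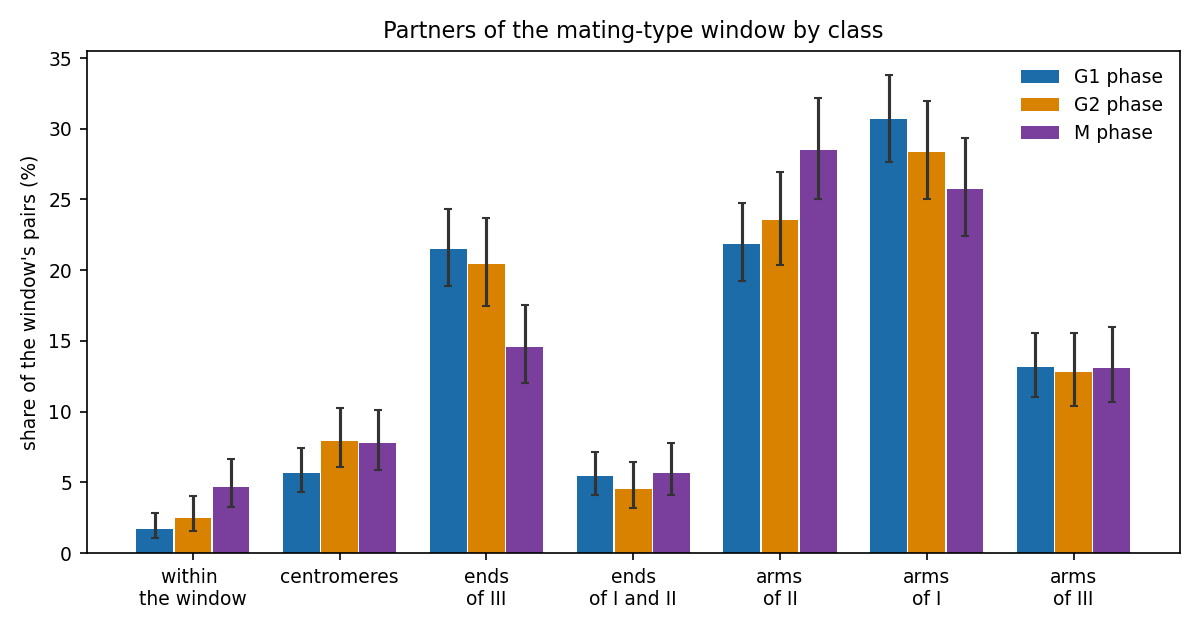
Share of the window's pairs by partner class in G1, G2 and M, with Wilson intervals (95%). From G1 to M phase pairs within the window went from 1.74% to 4.69%, pairs with the ends of chromosome III from 21.5% to 14.6% and pairs with the arms of chromosome II from 21.8% to 28.5%.

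Part of this shift was common to the chromosome arms. From G1 to M phase the share of pairs with chromosome ends was lower in 219 of the 235 other 50 kb arm windows, with a median of -6.59 percentage points against -6.72 for the mating-type window. Pairs with arms of the same chromosome changed by 6.64 points against a median of 2.53 (rank 21 of 236), pairs within the window by 2.95 points against 0 (rank 3), and pairs with arms of other chromosomes by -4.95 points against 2.30 (rank 228).

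Of the significant pairs that leave the window, 37, 24 and 9 were with chromosome ends, 3, 4 and 2 with arms and 0 with centromeres. Those with chromosome ends were all with the ends of chromosome III, which carry the ribosomal DNA, and need not be separate contacts. Among the window's pairs that share no repeated sequence, 40 (4.72%), 28 (4.46%) and 11 (1.83%) were significant, where such pairs of the whole network had 11.4%, 11.8% and 6.37%. The window stood below this background too in every phase.

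Of 71 pairs significant in any phase, 17 (23.9%) were significant in all 3, 13 in 2 and 41 in 1 (24 in G1, 13 in G2, 4 in M). The 13 significant pairs that share repeated sequence were significant in every phase. Of the 58 others, 4 (6.90%) were significant in all 3 phases. In the whole network 37.7% of the pairs significant in any phase were so in all 3, and 13.8% of those that share no repeated sequence, so the window stood below both.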

How the data were processed

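Contacts were measured by GCC in 6 libraries, 2 biological replicates of each of 3 phases, with groups taken from the labels. The authors digested cross-linked chromatin with AseI, ligated it and sequenced 50 bp paired ends, and the Topography suite, which uses SOAP, placed ends without mismatches on the genome (ASM294v2 per the labels). The deposited counts are raw numbers of joined read ends per pair of fragments, pooled over the replicates and including repeated sequence. Unused columns of per-sample values numbered 0.

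Pairs listed in both directions were used once, and adjacent pairs and pairs with a fragment outside the nuclear chromosomes were left out. The network held 2056860, 2196581 and 2119634 counts at G1, G2 and M. Fragments (9462 of 9464) were matched to the RefSeq reference sequence by their AseI ends, and coordinates are those of the tables. Stretches of 50 bp, or 25 bp as an alternative, occurring more than once on either strand were called repeated. A fragment with none was repeat-free (8741 fragments). Centromeres were the fragments at I 3739764-3799464, II 1589742-1655423 and III 1065364-1145026, and ends were 50 kb. Fisher's exact tests were two-sided on numbers of pairs, with Benjamini-Hochberg adjustment and a threshold of 0.05, in Python 3.11.15 with SciPy 1.17.1, pandas 2.3.3, NumPy 2.4.6 and matplotlib 3.10.9. Their p-values describe the pooled tables only, since pairs of 1 fragment are not separate observations. Shares have Wilson intervals, counts exact Poisson intervals and ratios of counts exact (Clopper-Pearson) intervals, at 95%. They cover counting error only, since amplified copies count as reads. The repeat search and class tests were tested on simulated data. There the class of each pair was drawn independently, so the grouping of pairs on few fragments was not simulated.

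Named pairs were the 3 with the most counts in each partner class, with and without pairs that share repeated sequence (ties in fragment order), the other pairs of the repeats, and fragments with a cassette or 10% of the window's counts. The ratios by fragment length, the ranks of other pairs, the contacts with the ends of chromosome III by fragment, the contacts within 100 kb, the 9 comparisons with other arm windows and the *sui1* fragment were chosen after values were seen. The members and lists were chosen with earlier results of these data known. Alternatives covered repeated sequence, window bounds, ends, cut-off and the total used. The sequences of the outer fragments are not reported here.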

Additional observations from a re-analysis of the deposited data

How the results depend on the processing

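No paired analysis was possible because the tables pool the replicates of each phase, so no replicate could be left out and no block fitted. Results are given here as M minus G1 phase in percentage points where not stated otherwise. Pairs within the window (2.95) gave 0 with both fragments repeat-free and 2.69 with the window narrowed by 10 kb on each side (Fisher's exact test, adjusted p = 0.0729). Pairs with chromosome ends (-6.72) gave 6.25 with both fragments repeat-free, turning sign, -5.56 with the window widened by 10 kb on each side (Fisher's exact test, adjusted p = 0.0512) and -5.78 with the narrowed window. Pairs with arms of II (6.64) gave 18.8 with both fragments repeat-free, 3.61 with the widened window (Fisher's exact test, adjusted p = 0.222), 6.22 with the narrowed window and -0.0776, turning sign, when reads were counted in place of pairs. Arms of I and III (-4.95) passed with reads, at -1.10. Reads here include pairs that share repeated sequence. Without those pairs, arms of II had 18.2% of counts in G1 and 25.8% in M phase. Arms of I and III then had 37.1% and 35.7%. Only 16 pairs a phase were left in G1 and M phase with both fragments repeat-free. For the other settings the cause was not tested. Of 15 class comparisons 3 passed, and 0 did over pairs with at least 3 counts. By reads, with pairs that share repeated sequence included, 8 of 15 passed.

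Significant pairs (53, 41 and 24) numbered 92, 89 and 52 at 2 counts and 26 and 20 in G1 and G2 phase at 5 counts, and 11 in M phase without shared sequence. Pairs significant in all phases (17) numbered 42 with at least 3 counts in 1 phase and 1 in the others and 4 without shared sequence. The ratio of counts not sharing repeated sequence was 0.683 for G2 over G1, 0.938 for M over G2 and 0.640 for M over G1 per network count, and 0.817, 1.26 and 1.03 per count of such pairs. With that total, chosen after seeing the data, M over G1 phase also turned for the *mat3* and right inner fragments (0.838 to 1.34), the *rrb1* side and middle fragments (0.774 to 1.24) and the middle and *aha1* fragments (0.658 to 1.05), while the outer fragments gave 0.262, the tandem fragments 0.628, the cassettes 1.77 and the repeat fragments 1.66. Without the left repeat fragment, chosen likewise, contacts within 100 kb moved by 2.18 points from G1 to M phase and by 2.66 from G2 to M phase, against 5.59 and 5.03. Beyond these, 36 alternative values kept their direction and side of the threshold or stayed within 1.5 times. For the comparisons with G2 phase 75 stayed on their side of the threshold, some of them with the direction turned, and 10 passed that had not. Pairs with chromosome ends, M minus G2 phase, for example went from -4.70 to 6.25 points with both fragments repeat-free.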
